A study of Homo sapiens with 5 samples.

Results

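The comparison described here set A549 cells 16 h after transfection with an oligo named 23N randomer against A549 cells 9 h after the same transfection. A549 is a human lung carcinoma epithelial line, and the oligo was given at 50 nM with Lipofectamine 2000. The comparison used 2 of the 5 libraries of the study, 1 at each time. The other 3 libraries came from cells that received a control oligo, also at 50 nM and for 16 h or 9 h, and from mock cells that received the lipid alone for 16 h. All 5 groups share the cell line and the transfection lipid. Total RNA was depleted of ribosomal RNA and sequenced, and reads over exons and over introns were counted in separate tables. Each group holds 1 library, so no test and no p-value is possible, and nothing was measured of the spread between repeat cultures. Intervals given in square brackets are exact 95% counting intervals of a log2 ratio and cover counting error only. Genes were kept where the 16 h and 9 h libraries averaged 50 or more counts, which left 6026 of 23340 genes by exons and 7138 of 22009 by introns.

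By its title, the study concerns RNA from inverted repeats in introns and intergenic DNA that folds into double strands, and the interferon system. Cells sense double-stranded RNA with several proteins, among them the OAS enzymes, which make the short oligoadenylate 2-5A when they bind it, and the kinase PKR, which restrains translation. Immediate early genes such as FOS and EGR1 are transcribed within minutes of a signal without new protein synthesis, and NF-kB target genes include the inhibitors that shut NF-kB down again. Reads over introns come from RNA that has not been spliced, from excised introns that have not been degraded, or from transcripts that cross the gene, and these sources cannot be told apart in counts.

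Exon counts summed to 1476223 in the randomer 16 h library and 1792192 in the randomer 9 h library, against 1957361 to 2629053 in the other 3 libraries. Intron counts summed to 1947593 at 16 h and 1768491 at 9 h with randomer, against 603142 to 773339 in the other 3. Introns therefore held 56.9% of gene counts at 16 h and 49.7% at 9 h with randomer. With control oligo the share was 22.9% at 16 h and 22.0% at 9 h, and the mock library had 23.6%. The intron share was 7.22 points higher at 16 h than at 9 h with randomer, and 0.97 points higher with control oligo. RN45S, the precursor of ribosomal RNA, took 16.4% of exon counts in the randomer 16 h library and 7.84% in the randomer 9 h library. It took 7.24% at 16 h and 6.78% at 9 h with control oligo, and 11.5% in the mock library. The part that the depletion of ribosomal RNA has in these RN45S shares was not tested. Of the 10 markers of A549 and airway epithelium, 7 had exon counts at 16 h and 6 at 9 h, led by the keratins KRT18 and KRT8 and by ALDH1A1, a retinaldehyde dehydrogenase. The airway genes SFTPB, NKX2-1 and SCGB1A1 were at 0 in all 5 libraries. The markers summed to 2842 and 4026 exon CPM, the usual scaling of counts to the library total, at 16 h and 9 h with randomer, and to 4576 to 5427 in the other 3 libraries.

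Exon counts, scaled by the exon total, had a median log2 ratio of -0.18 between 16 h and 9 h with randomer. Of the 6026 genes, 242 were 2-fold or more higher at 16 h, a share of 4.02%, and 457 were 2-fold or more lower, a share of 7.58%. The same comparison with control oligo covered 7084 genes with a median of 0.00, of which 4.63% were 2-fold or more higher and 4.25% lower. The exon table thus held many genes past 2-fold between the control oligo times as well (328 higher and 301 lower), with less lean to one side. The spread depended on depth. Among genes averaging 50 to 100 counts, 6.78% were higher and 12.1% lower with randomer, against 9.60% higher and 9.37% lower with control oligo. Among genes averaging 200 to 500 counts, 0.41% were higher and 2.38% lower with randomer, against 1.08% higher and 1.08% lower with control oligo. Other scalings move all exon and intron ratios of the randomer pair up together, by 0.12 with TMM factors, 0.14 without RN45S in the total and 0.17 with DESeq2 size factors. With DESeq2 size factors 386 genes were higher and 295 lower, so which direction held more genes depends on the scaling, and the gene groups below are read against the median of all genes.

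**Figure D1:**
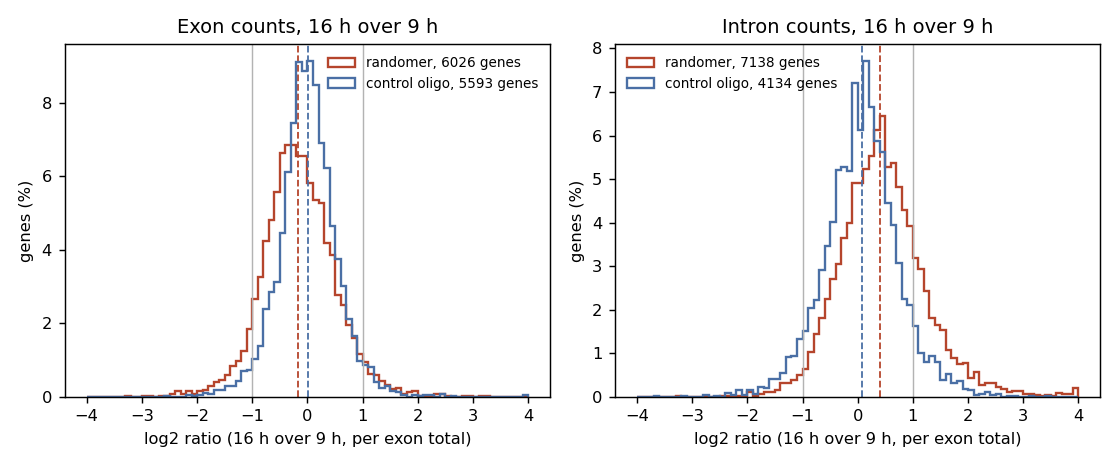
Distribution of log2 ratios of 16 h over 9 h for exon counts (left) and intron counts (right), in percent of genes per bin, for randomer and, for those of its genes that also averaged 50 counts with control oligo, for the control oligo pair. Dashed lines are medians, grey lines mark 2-fold, and ratios past 4 are drawn at 4; the randomer exon median is at -0.18 and the randomer intron median at 0.41.

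Immediate early genes leaned higher at 16 h. Of 29 measured by exons, 6 were 2-fold or more higher (20.7%, beside 4.02% of all genes) and none was 2-fold or more lower. The median log2 ratio was 0.60 beside -0.18 over all genes. With control oligo the median of the 21 measured members was 0.16, and no member was past 2-fold. FOS, a subunit of the AP-1 transcription factor, had 275 exon counts at 16 h and 86 at 9 h with randomer, 14 and 24 with control oligo, and 10 in the mock library, a log2 ratio of 1.96 [1.60, 2.32]. FOSB, a relative of FOS, had 154 counts at 16 h and 45 at 9 h, none with control oligo at either time and 6 in the mock library, a log2 ratio of 2.05. ATF3, a stress-induced transcription factor, had 231 counts at 16 h and 80 at 9 h with randomer, 7 and 16 with control oligo, and 12 in the mock library. These 3 genes were above the control oligo and mock libraries at both times, and furthest above them at 16 h. EGR1, a zinc finger transcription factor, had 741 counts at 16 h and 317 at 9 h, beside 18 and 11 with control oligo and 11 in the mock library. Its log2 ratio was 1.50 [1.31, 1.70]. FOSL1 and IER2 completed the 6, at log2 ratios of 1.49 and 1.20. JUN, which pairs with FOS in AP-1, was 1.57-fold higher, with 1206 counts at 16 h and 932 at 9 h.

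The RefSeq promoter of EGR1 holds 2 CArG boxes, the sites that serum response factor binds, in the 250 bases before the start. They are shown in capitals because EGR1 was the only one of the 5 immediate early genes past 2-fold with a promoter in the table that held a match. Of all 35116 promoters searched on both strands, 1.16% held one. The stretch is chr5:138465329-138465450 of GRCh38.p14, plus strand.
EGR1: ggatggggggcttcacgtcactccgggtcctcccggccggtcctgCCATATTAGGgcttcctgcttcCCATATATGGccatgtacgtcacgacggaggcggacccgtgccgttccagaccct
A match describes the letters of this window only.

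Genes that feed back on MAPK signalling were on the same side, with a median log2 ratio of 0.51 beside 0.22 for the 12 measured with control oligo. With randomer 2 of 12 measured members were 2-fold or more higher (16.7%, beside 4.02% of all genes) and none lower. DUSP6, a phosphatase of ERK, had 106 counts at 16 h and 25 at 9 h with randomer, a log2 ratio of 2.36. It had 57 and 15 counts with control oligo, a log2 ratio of 1.94, and 13 in the mock library, so its levels at the later time were higher with both oligos. DUSP5, another ERK phosphatase, had 174 counts at 16 h and 99 at 9 h with randomer, and 84 and 46 with control oligo. Its log2 ratios were 1.09 and 0.89. DUSP1, a phosphatase of stress kinases, had 1248 counts at 16 h and 1141 at 9 h, a log2 ratio of 0.41.

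Regulators of NF-kB leaned the same way. Of 16 measured, 4 were 2-fold or more higher (25%, beside 4.02% of all genes) and none lower, with a median log2 ratio of 0.36. With control oligo the median of the 11 measured members was -0.49. NFKBIA, the inhibitor that holds NF-kB in the cytoplasm, had 815 counts at 16 h and 424 at 9 h with randomer, 54 and 80 with control oligo, and 47 in the mock library, a log2 ratio of 1.22 [1.05, 1.40]. NFKBIZ, a nuclear regulator of NF-kB, had 101 counts at 16 h and 26 at 9 h, beside 7 and 11 with control oligo and none in the mock library. IRF1, a transcription factor of the interferon system, had 203 counts at 16 h and 65 at 9 h, beside 19 and 6 with control oligo and 17 in the mock library. All 3 were highest in the randomer 16 h library, and IRF1 was also higher at the later time with control oligo, on counts under 20. TNIP2, a binding partner of the A20 protein, had 115 counts at 16 h and 16 at 9 h with randomer, but 51 and 191 with control oligo and 93 in the mock library. Per exon total TNIP2 was lowest in the randomer 9 h library, and the randomer 16 h library was close to the control oligo 9 h library. TNFAIP3, which encodes A20, had 197 counts at 16 h and 165 at 9 h, a log2 ratio of 0.54 [0.23, 0.84]. Among chemokines and cytokines 5 genes passed the minimum, with a median log2 ratio of -0.03. Of these 2 were 2-fold or more higher and 1 lower, or 40% and 20%, beside 4.02% and 7.58% of all genes. The lower one was IL11, with 82 counts at 16 h and 317 at 9 h with randomer, a log2 ratio of -1.67. It had 76 and 119 with control oligo and 36 in the mock library. LIF had 468 and 973 with randomer, a log2 ratio of -0.78, 441 and 376 with control oligo, and 588 in the mock library. IL8, a neutrophil chemokine, had 199 counts at 16 h and 118 at 9 h with randomer, 21 and none with control oligo, and 3 in the mock library. CXCL2, a related chemokine, had 74 counts at 16 h and 28 at 9 h with randomer, 7 and 42 with control oligo, and none in the mock library.

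The 10-base NF-kB consensus was searched for on both strands in the 250 bases before the start of genes in RefSeq (GRCh38.p14). The 6 genes of these groups that were 2-fold or more higher are given first. NFKBIA, NFKBIZ, IRF1 and CXCL2 held it and TNIP2 and IL8 did not, where 5.21% of all 35116 promoters did. Among the 11 NF-kB regulators that were not 2-fold higher and had a promoter in the table, 7 held it too, so the match does not set apart the regulators that were higher. The stretches are shown, with the match in capitals, because these 4 of the 6 genes held a match. NFKBIA is chr14:35404776-35404875, minus strand. IRF1 is chr5:132490774-132490868, minus strand. NFKBIZ is chr3:101827740-101827821, plus strand. CXCL2 is chr4:74099218-74099318, minus strand, where 2 matches on opposite strands overlap.
NFKBIA: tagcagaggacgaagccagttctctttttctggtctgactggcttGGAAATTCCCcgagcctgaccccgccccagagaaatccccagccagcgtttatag
IRF1: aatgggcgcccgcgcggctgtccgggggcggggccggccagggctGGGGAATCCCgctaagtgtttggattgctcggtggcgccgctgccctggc
NFKBIZ: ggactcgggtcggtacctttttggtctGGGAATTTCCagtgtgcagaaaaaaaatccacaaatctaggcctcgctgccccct
CXCL2: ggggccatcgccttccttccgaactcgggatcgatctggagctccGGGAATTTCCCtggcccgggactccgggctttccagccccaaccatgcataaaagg

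**Figure D2:**
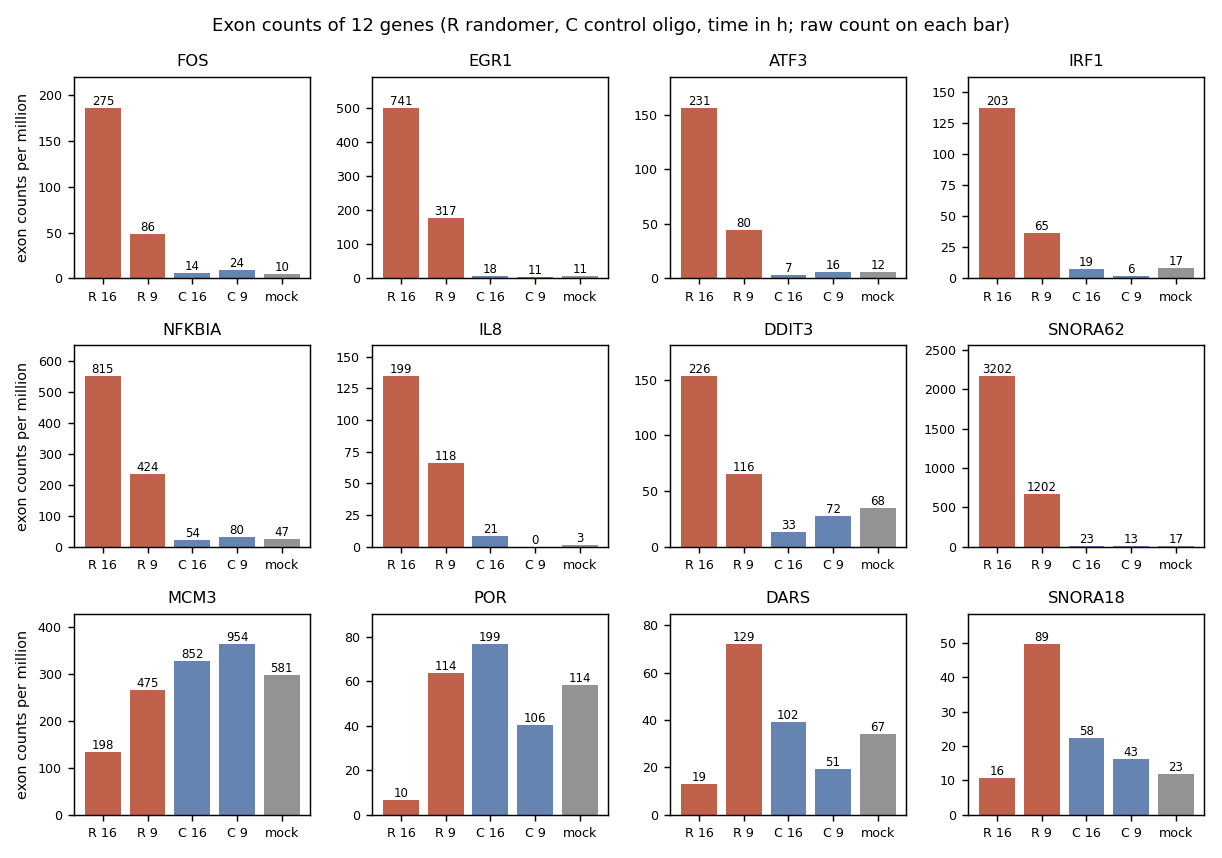
Exon CPM in the 5 libraries for 12 genes, each panel with its own linear axis from 0 and the raw count on each bar (R randomer, C control oligo, number the time in h). FOS, EGR1, ATF3, IRF1, NFKBIA, IL8, DDIT3 and SNORA62 are highest in the randomer 16 h library, and MCM3, POR, DARS and SNORA18 are lowest there.

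No interferon gene measured was past 2-fold. IFNB1, the beta interferon gene, had 0 exon counts in all 5 libraries, which allows up to 3 counts in each and does not show absence. Of 52 interferon and interferon-stimulated genes in the table only 5 passed the minimum, none past 2-fold, with a median log2 ratio of -0.31. IFIT1, an interferon-induced RNA-binding protein, had 10 counts at 16 h and none at 9 h with randomer, 5 and none with control oligo, and 10 in the mock library. OAS3, which makes 2-5A, had 85 counts at 16 h and 177 at 9 h, a log2 ratio of -0.78 [-1.17, -0.40], against 408 and 274 with control oligo and 184 in the mock library. Of the genes of double-stranded RNA sensing, 13 passed the minimum, none past 2-fold, with a median of -0.27. EIF2AK2, the kinase PKR, had 98 counts at 16 h and 146 at 9 h, and ADAR, which edits double-stranded RNA, was at a log2 ratio of -0.27.

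Stress genes were divided. Of 24 measured ATF4 targets, genes switched on when translation initiation is restrained, none was 2-fold or more lower and the median log2 ratio was -0.05. Among them 2 were 2-fold or more higher (8.33%, beside 4.02% of all genes). Both were transcription factors. ATF3 is described above, and DDIT3, which encodes CHOP, had 226 counts at 16 h and 116 at 9 h with randomer, 33 and 72 with control oligo, and 68 in the mock library. PPP1R15A, a phosphatase subunit that restores translation, was 1.55-fold higher, with 854 counts at 16 h and 670 at 9 h. SESN2, a stress-induced inhibitor of mTORC1, had 164 and 144. Of 25 measured p53 targets 3 were higher (12%, beside 4.02% of all genes) and none lower. Their median was 0.41, beside 0.29 for the 24 measured with control oligo. PLK2, a polo-like kinase, had 757 counts at 16 h and 399 at 9 h, SERTAD1, a cell cycle regulator, had 198 and 94, and BBC3, the apoptosis activator PUMA, had 129 and 74. Endoplasmic reticulum chaperones stayed within 2-fold in all 16 measured members, with a median of -0.30.

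Several housekeeping groups had medians below that of all genes, which was -0.18. The median of all genes itself fell with depth. It was -0.12 among genes averaging 50 to 100 counts, -0.25 at 500 to 1000 and -0.30 at 1000 or more. The groups were not matched to other genes by depth. Beside 7.58% of all genes that were 2-fold or more lower, the share lower was between 10.3% for DNA replication genes and 18.8% for glycolysis genes. These shares rest on 3 to 6 members each, so the groups are described by their medians. Of 29 measured DNA replication genes, 3 were 2-fold or more lower and none higher, with a median log2 ratio of -0.57 beside -0.15 with control oligo. ORC6, a subunit of the origin recognition complex, had 24 counts at 16 h and 94 at 9 h with randomer, 92 and 85 with control oligo, and 72 in the mock library. GINS4, part of the replicative helicase, had 59 and 189 with randomer, 251 and 288 with control oligo, and 196 in the mock library. RPA1, which coats single-stranded DNA, had 89 and 242 with randomer, against 354 and 391 with control oligo and 248 in the mock library. All 3 were lowest in the randomer 16 h library. Cytosolic ribosomal protein genes had a median of -0.49, with 6 of 58 lower and none higher, and 0.08 with control oligo. Mitochondrial ribosomal protein genes had a median of -0.46, with 6 of 36 lower and none higher. Subunits of oxidative phosphorylation had a median of -0.29, with 6 of 43 lower and none higher. Glycolysis genes had a median of -0.46, with 3 of 16 lower and none higher. Among them TPI1, triosephosphate isomerase, had 179 counts at 16 h and 455 at 9 h with randomer, 731 and 690 with control oligo, and 474 in the mock library, a log2 ratio of -1.07 [-1.32, -0.81]. HK1, a hexokinase, and SLC2A1, a glucose transporter, were at -1.13 and -1.36. NRF2 targets had a median of -0.38, with 3 of 24 lower and none higher, led by TALDO1, a transaldolase, with 93 and 295 counts. RN45S, counted in libraries depleted of ribosomal RNA, went the other way, at a log2 ratio of 1.07, and took a larger part of the 16 h exon total. Leaving it out of the total raises each log2 ratio by 0.14, to a median of -0.43 for DNA replication genes and -0.35 for cytosolic ribosomal protein genes.

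The 12 genes lowest at 16 h by the bound of their counting interval nearest to 0 led with POR, the cytochrome P450 reductase. POR had 10 exon counts at 16 h and 114 at 9 h with randomer, 199 and 106 with control oligo, and 114 in the mock library, a log2 ratio of -3.23 [-4.33, -2.30]. KLHDC10 had 17 counts at 16 h and 154 at 9 h, beside 236 and 219 with control oligo and 125 in the mock library. C6orf141 had 92 and 531 with randomer, against 238 and 446 with control oligo and 155 in the mock library, so that it was above the other libraries at 9 h. DARS, the aspartyl-tRNA synthetase, had 19 and 129 with randomer, 102 and 51 with control oligo, and 67 in the mock library. ERP29, an endoplasmic reticulum folding protein, had 21 and 137, against 287 and 196 with control oligo and 155 in the mock library. The others were C16orf58, HDGFRP3, ARPC5L, TUSC2, TMEM115, AVL9 and PODXL, at log2 ratios of -2.95 to -2.31. All 12 had under 100 counts at 16 h.

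The 12 genes highest at 16 h by the same rule led with FMNL1, a formin of the actin cytoskeleton. FMNL1 had 118 counts at 16 h and 15 at 9 h with randomer, 49 and 30 with control oligo, and 13 in the mock library, a log2 ratio of 3.26 [2.48, 4.14]. TNIP2 came next. MMRN2, an extracellular matrix protein of blood vessels, had 165 counts at 16 h and 36 at 9 h, and ARHGAP9, a GTPase-activating protein of blood cells, had 93 and 20. Both had 0 exon counts in the control oligo and mock libraries. Their intron counts followed, with 317 and 38 for MMRN2 and 171 and 19 for ARHGAP9 at 16 h and 9 h. GENCODE lists 4 genes that overlap MMRN2 and 2 that overlap ARHGAP9. The sources used here do not give the strand setting of the counting, so such genes may share reads. The others were ZNF79, R3HDM2, LZTR1, THBD, PRDM2, ZNF557 and DUSP6, at log2 ratios of 2.30 to 2.98.

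Markers of other cell types had a summed exon level of 395 CPM at 16 h and 327 at 9 h with randomer, against 126 to 205 in the other 3 libraries, and 16 of the 29 markers had no exon count at 16 h and 17 at 9 h. By introns they summed to 3167 CPM at 16 h and 1517 at 9 h, against 46.2 to 127 in the other 3. A few genes carried these sums. Of 4675 intron counts at 16 h and 2718 at 9 h, NRXN2 had 1565 and 1374 and ITGAM 948 and 568, and RBFOX3 is described below. Of 583 exon counts at 16 h and 586 at 9 h, COL1A1 had 115 and 276, so it was lower at 16 h. In the control oligo 9 h library it had 504 of 540. The part of these markers in the results for MMRN2, ARHGAP9 and similar genes was not tested.

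Replication-dependent histone genes ran against the DNA replication genes. Their messages end in a stem-loop in place of a poly(A) tail. Of 27 measured 5 were 2-fold or more higher (18.5%, beside 4.02% of all genes) and none lower. The median log2 ratio was 0.36 beside -0.34 with control oligo. HIST1H1E, a linker histone, had 483 counts at 16 h and 250 at 9 h with randomer, 201 and 308 with control oligo, and 155 in the mock library, a log2 ratio of 1.23 [1.01, 1.46]. HIST4H4, a core histone, had 75 and 32 with randomer, against 34 and 59 with control oligo and 31 in the mock library. HIST1H1E and HIST4H4 were above the other libraries at 16 h, whereas HIST2H2AB, with 109 and 59 counts, stayed below the 226 and 235 counts with control oligo.

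Both groups of snoRNAs had medians above the -0.18 of all genes, and single members moved both ways. H/ACA snoRNAs guide pseudouridylation, and 34 of 130 passed the minimum, with a median log2 ratio of 0.11. Of these 3 were higher and 2 lower, or 8.82% and 5.88%, beside 4.02% and 7.58% of all genes. SNORA62 had 3202 counts at 16 h and 1202 at 9 h with randomer, 23 and 13 with control oligo, and 17 in the mock library, a log2 ratio of 1.69 [1.60, 1.79]. SNORA18 had 16 counts at 16 h and 89 at 9 h with randomer, 58 and 43 with control oligo, and 23 in the mock library, a log2 ratio of -2.20 [-3.06, -1.42]. SNORA75 had 48 and 156 with randomer, none at either time with control oligo, and 8 in the mock library. SNORA62 and SNORA75 thus shared a rarity in the control oligo and mock libraries and differed in direction between the times. The sequences of SNORA62 and SNORA75 are given from GENCODE transcripts on GRCh38, with the ACA box 3 bases from the end in capitals. SNORA62 is chr3:39411054-39411206, plus strand, and SNORA75 is chr2:231455800-231455936, minus strand.
SNORA62: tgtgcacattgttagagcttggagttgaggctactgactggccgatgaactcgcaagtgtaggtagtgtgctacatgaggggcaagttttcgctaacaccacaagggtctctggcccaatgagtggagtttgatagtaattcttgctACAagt
SNORA75: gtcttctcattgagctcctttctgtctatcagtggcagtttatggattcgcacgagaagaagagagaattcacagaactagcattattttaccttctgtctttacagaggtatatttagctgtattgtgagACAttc
C/D box snoRNAs, which guide ribose methylation, had 49 of 262 members past the minimum, with a median of 0.10. None was higher and 5 were lower, or 10.2%, near the 7.58% of all genes. RNU11, the U11 RNA of the minor spliceosome, had 659 counts at 16 h and 484 at 9 h, beside 7 and none with control oligo and 7 in the mock library, a log2 ratio of 0.73. KCNQ1OT1, an imprinted antisense RNA, had 637 and 370 with randomer, 90 and 130 with control oligo, and 86 in the mock library. The nuclear RNAs NEAT1 and MALAT1 were at log2 ratios of 0.79 and 0.35. RN45S was at 1.07, and at 0.10 between the control oligo times.

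Intron counts were higher at 16 h. Scaled by the exon total, their median log2 ratio was 0.41, and 1455 of 7138 genes were 2-fold or more higher, a share of 20.4%, against 160 lower, a share of 2.24%. With control oligo the median over 4496 genes was 0.09, with 7.92% higher and 6.23% lower. The lean was present at every depth, with 26.7% higher and 4.19% lower among introns averaging 50 to 100 counts and 14.3% higher and 0.53% lower among the 189 introns averaging 1000 or more. Scaled by the intron total, which removes the change in the intron share, 695 introns were higher and 534 lower.

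The share of introns past 2-fold differed with how much the same introns were counted without the randomer. Of 487 genes whose introns had 0 counts in both control oligo libraries, 43.7% were 2-fold or more higher at 16 h and 2.26% lower. The share higher was 38.9% at 1 to 20 control oligo counts, 26.9% at 21 to 100, 13.7% at 101 to 400 and 4.75% at 401 to 1000. Of the 94 genes with over 1000 counts none was 2-fold or more higher. Every class passed the minimum on the same randomer counts that form the ratio. For introns rare without randomer a high count at 1 time can be enough to pass, so these shares are a description only. Introns with no control oligo counts were also read less deeply, since 60 of the 487 averaged 200 or more randomer counts, against 490 of the 568 with 401 to 1000. Among introns averaging 200 or more randomer counts the share higher was 26.7% at 0 control oligo counts (16 of 60 genes), 24.4% at 1 to 20, 24.9% at 21 to 100, 15.2% at 101 to 400 and 5.51% at 401 to 1000, so the steps among the first 3 groups were no longer seen there and the drop above 100 counts was. For the same introns the control oligo pair had 7.39% higher and 5.36% lower at 101 to 400, and 2.24% and 0.41% at 401 to 1000. By exons with randomer, at a mean of 50 or more, the share higher was 24.4% at 0 control oligo counts, 16.0% at 21 to 100 and 1.25% at 401 to 1000. A fall in the share higher was thus not particular to introns or to randomer. Intron length made little difference, with 18.9% to 21.8% of genes higher over 6 classes of length.

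**Figure D3:**
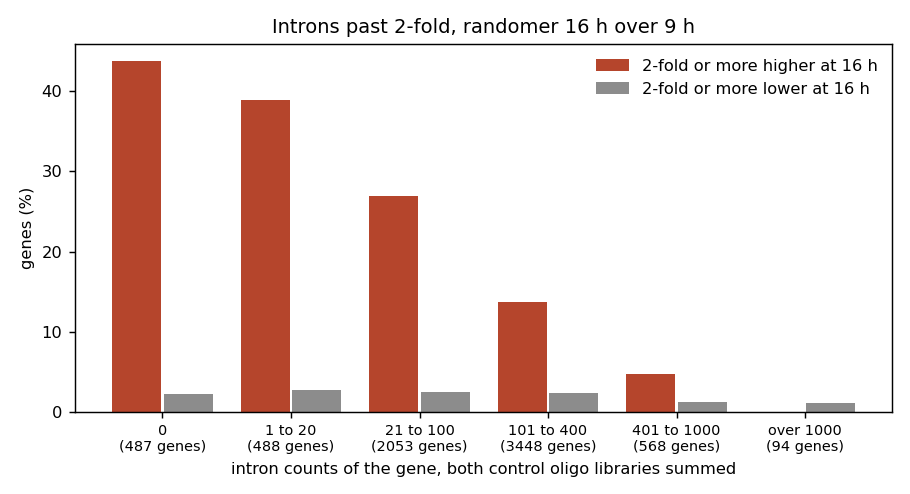
Percent of genes whose intron counts were 2-fold or more higher or lower in the randomer 16 h library than in the randomer 9 h library, by their summed intron counts with control oligo (linear axis from 0, number of genes under each class). The share higher is 43.7% at 0 counts and 4.75% at 401 to 1000, while the share lower stays at or under 3%.

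The introns highest at 16 h were mostly of genes with few or no counts without randomer. MYH14, a nonmuscle myosin, had 201 intron counts at 16 h and none at 9 h, nor in any control oligo or mock library, at least 81.3-fold higher at 16 h against a floor of 3 counts. NEO1, a netrin family receptor, had 152 counts at 16 h and 1 at 9 h, a log2 ratio of 7.53 with an interval of 5.03 to 12.84. SOX6, a transcription factor, had 361 and 29, and GRIK3, a glutamate receptor subunit, had 178 and 11. Both had 0 intron counts with control oligo and in the mock library. NR1D1, a nuclear receptor of the circadian clock, had 98 intron counts at 16 h and 4 at 9 h, none with control oligo and 3 in the mock library. The other introns of the 10 were those of ZNF608, SH3TC2, C10orf105, ALG12 and TNFSF9, at log2 ratios of 4.30 to 5.32. RBFOX3, a neuronal splicing factor listed as a marker of other cell types, had 1473 intron counts at 16 h and 160 at 9 h, none and 12 with control oligo, and 1 in the mock library. CACNA1E, a calcium channel, had 523 and 49 and none in the other 3 libraries.

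Not all introns absent without randomer were higher at 16 h. OCA2, a melanosome transporter, had 65 intron counts at 16 h and 287 at 9 h, and MOBP, a myelin protein, had 37 and 173, with 0 for both genes in the control oligo and mock libraries. The lowest introns were led by FPGS, which adds glutamates to folates, with 10 counts at 16 h and 115 at 9 h, beside 7 and 18 with control oligo. RUVBL1, an ATPase of chromatin remodelling complexes, had 38 and 214, against 111 and 59 with control oligo and 103 in the mock library.

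By introns the signalling groups were again above the median of all genes. The distance was 0.60 for immediate early genes by introns and 0.78 by exons, 0.31 and 0.53 for NF-kB regulators, and 0.53 and 0.59 for p53 targets, so none of the 3 stood further out by introns. In these 3 groups between 43.5% and 50.0% of members were 2-fold or more higher by introns, beside 20.4% of all genes measured by introns. MAPK feedback genes were nearer to all genes, with 3 of 11 higher, a share of 27.3%, none lower and a median of 0.81. Immediate early genes had a median intron log2 ratio of 1.01 over 20 measured members, 10 higher and none lower. FOS introns had 164 counts at 16 h and 37 at 9 h, 3 and none with control oligo, and none in the mock library. ATF3 introns had 836 and 367, against 31 and 10 with control oligo and 36 in the mock library. NR4A2, an orphan nuclear receptor, had 94 and 10. NF-kB regulators had a median of 0.72, with 9 of 20 higher and 1 lower, and p53 targets had a median of 0.94, with 10 of 23 higher and none lower. Among NF-kB regulators CYLD, a deubiquitinase, had 1143 intron counts at 16 h and 512 at 9 h with randomer, 27 and 8 with control oligo, and 31 in the mock library.

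Mitotic genes stood further above the median of all genes by introns than by exons. By introns 16 of 33 were 2-fold or more higher (48.5%, beside 20.4% of all genes) and none lower (beside 2.24%). Their median log2 ratio was 0.92 against 0.41 over all introns. By exons 3 of 39 were higher and 1 lower, or 7.69% and 2.56%, beside 4.02% and 7.58% of all genes. Their exon median was -0.06 against -0.18 over all genes. CENPE, a kinetochore motor, had 304 intron counts at 16 h and 76 at 9 h with randomer, 74 and 62 with control oligo, and 45 in the mock library. CDK1, the mitotic kinase, had 158 and 58 with randomer, against 81 and 120 with control oligo and 53 in the mock library. Lysosome and autophagy genes had 7 of 16 higher (43.8%, beside 20.4% of all genes) and none lower by introns, with a median of 0.69. At the other end, introns of cytosolic ribosomal protein genes had a median of -0.23, with 2 of 61 higher and 1 lower, and those of aminoacyl-tRNA synthetases a median of -0.24, with none of 18 higher and 1 lower. Under scaling by the intron total all intron medians drop by 0.42, and the order of the groups is unaffected.

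**Figure D4:**
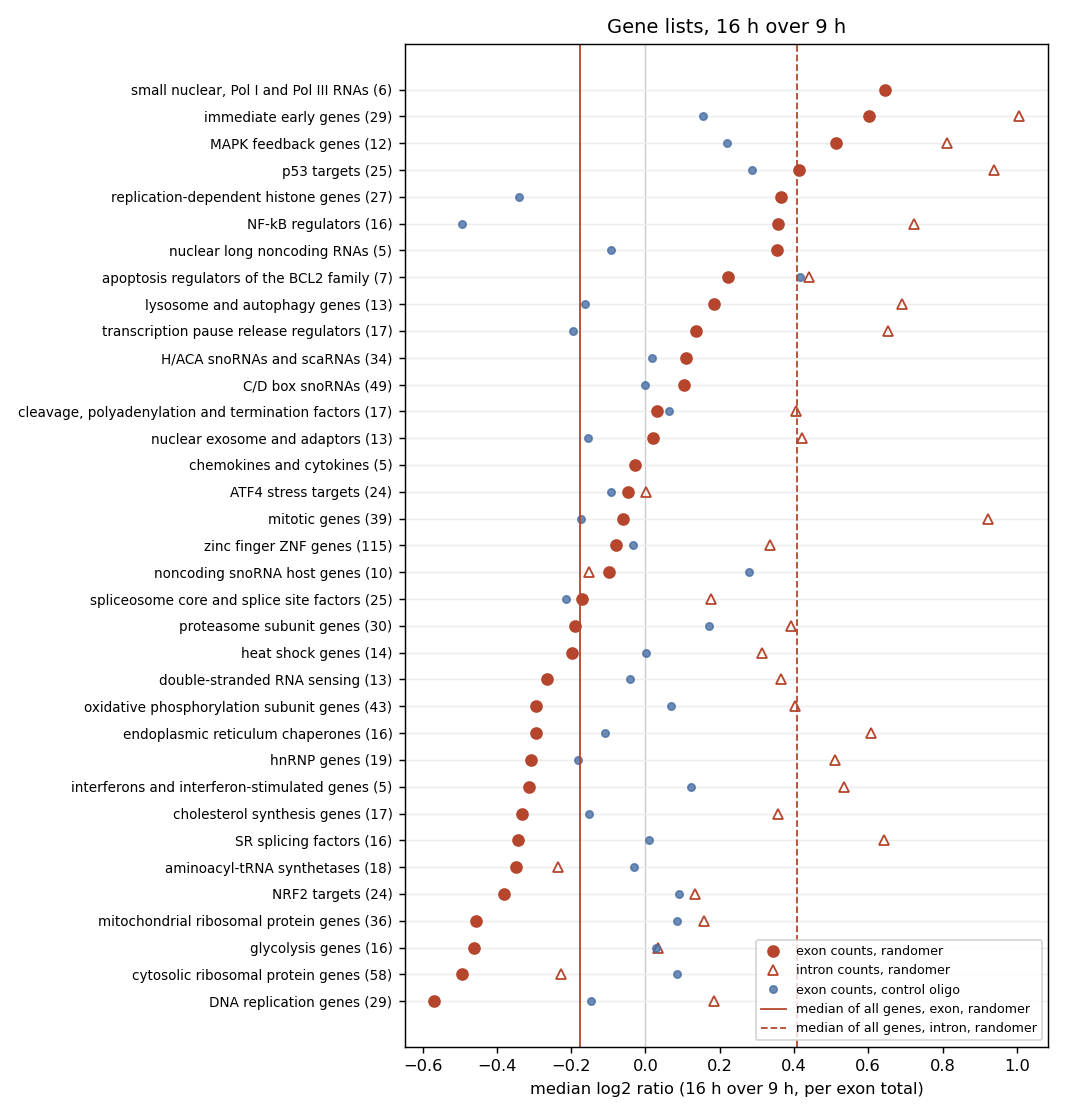
Median log2 ratio of 16 h over 9 h for each gene list with 5 or more measured members (number of members measured by exons in parentheses), by exon counts and intron counts with randomer and by exon counts with control oligo. Lines mark the medians of all genes with randomer, -0.18 by exons and 0.41 by introns; immediate early genes are right of both lines, and DNA replication genes are at -0.57 by exons.

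The intron-to-exon ratio of a gene does not depend on library scaling. It was measured in 4316 genes with 50 or more counts on average in both tables. Its median log2 ratio between 16 h and 9 h was 0.48 with randomer, with 990 genes 2-fold or more higher, a share of 22.9%, and 101 lower, a share of 2.34%. With control oligo the median was 0.07 over 3692 genes, with 10.8% higher and 7.72% lower. PRDM4, a zinc finger protein, had 117 intron counts at 16 h and 11 at 9 h, beside 46 and 110 exon counts. B3GALNT2, a glycosyltransferase, had 931 and 148 intron counts and 311 and 394 exon counts, against 60 and 105 intron counts with control oligo and 120 in the mock library, so its introns were higher at 16 h while its exons were at a log2 ratio of -0.06. POR had 145 and 78 intron counts beside its low exon counts. SLC35A2, CEP57 and C16orf80 completed the 6 highest, with log2 changes of the ratio of 3.64, 3.37 and 3.32. WARS, the tryptophanyl-tRNA synthetase, was lowest, with 36 intron counts at 16 h and 192 at 9 h beside 110 and 64 exon counts. ALKBH8, NDUFAB1, LZTS2, IPO13 and TSC22D1 followed, at log2 changes of -2.57 to -1.65. Exon and intron ratios of the same gene had a Spearman correlation of 0.32 across genes with randomer and of 0.17 with control oligo. Genes are not independent replicates, and both counts of a gene come from the same libraries. Of 175 genes 2-fold or more higher by exons in this set 81 were also higher by introns, and of 246 lower by exons 7 were lower and 26 higher by introns. Over all 7138 genes measured by introns, a wider set, 20.4% were higher and 2.24% lower. With control oligo 14 of 109 genes higher by exons were also higher by introns. Of 119 lower by exons there, 18 were lower and 9 higher by introns.

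**Figure D5:**
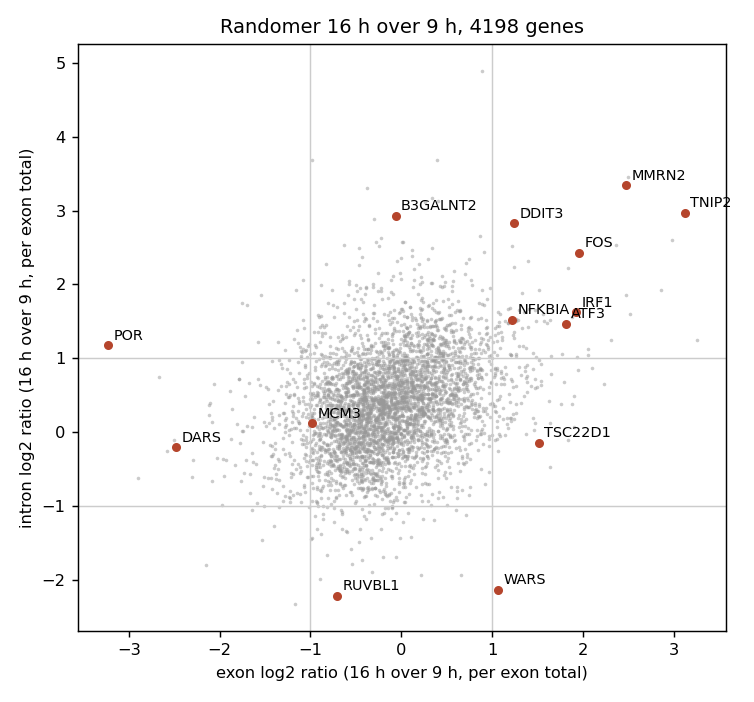
Log2 ratio of 16 h over 9 h by introns (vertical) against exons (horizontal) with randomer, for 4198 genes with the same symbol and an average of 50 counts in both tables; grey lines mark 2-fold. FOS, IRF1, ATF3, NFKBIA, DDIT3, TNIP2 and MMRN2 are past 2-fold on both axes, POR is low by exons and high by introns, and WARS the reverse.

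The 2 pairs of times share no library. Of 5593 genes measured by exons in both pairs, 170 were 2-fold or more higher with randomer and 184 with control oligo, and 10 were in both, 5.88% of the first list and 5.43% of the second. The base for the first share is the 3.29% of all these genes that were higher with control oligo. For the second share it is the 3.04% that were higher with randomer. Of 422 lower with randomer and 174 lower with control oligo 22 were in both, 5.21% and 12.6% of the lists. The bases in the same order were 3.11% of all lower with control oligo and 7.55% lower with randomer. By introns 505 and 312 genes of 4134 were higher, and 56 were in both, 11.1% and 17.9% of the lists. Here the bases were 7.55% of all higher with control oligo and 12.2% higher with randomer. Of 87 introns lower with randomer and 234 lower with control oligo 4 were in both, 4.60% and 1.71% of the lists. The bases were 5.66% of all lower with control oligo and 2.10% lower with randomer. Calls in opposite directions were made for 12 genes by exons that were higher with randomer and lower with control oligo and 23 the other way, and for 42 and 11 genes by introns. Across genes the exon ratios of the pairs had a Pearson r of 0.08 and the intron ratios one of 0.03.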

How the data were processed

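The authors deposited raw counts per gene symbol in an exon table and an intron table. The submitters' processing notes name TopHat2, HTSeq and hg19, with no versions or strand setting. The 28 rows per table whose symbols had become dates were dropped. Counts at 16 h were divided by counts at 9 h after scaling both tables by the exon total, with an exact conditional binomial interval (95%, Clopper-Pearson), and genes with a mean of 50 or more counts were called at 2-fold. Intron-to-exon ratios had 0.5 added to each count. Confidence intervals and the floor of 3 counts cover counting error only, since PCR copies are not independent molecules. The files pair 19176 symbols between tables. GENCODE annotation of GRCh38, another build than that of the counts, gave gene types, lengths and overlaps for 98.7% of measured exon genes and 98.1% of intron genes. Software was Python 3.11.15, scipy 1.17.1, and edgeR 4.0.16 and DESeq2 1.42.0 in R 4.3.3 for other scalings. The interval was tested on simulated data.

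Named genes were the 12 highest and 12 lowest by exons, 10 each way by introns and 6 each way by their ratio (in each case by the interval bound nearest 0), up to 4 members of each list, and a fixed set. IER2, HIST2H2AB, MCM3, KRT18, KRT8, ALDH1A1, RBFOX3, CACNA1E, NR4A2, CYLD, CENPE and CDK1 were chosen after their values were seen. Members and lists were chosen with earlier results of these data known, so they are not independent support. Alternatives were other scalings, minimums, calls at 3-fold, and genes without overlaps. Some genes and sequences that this rule names are not reported here.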

Additional observations from a re-analysis of the deposited data

Results flagged for a closer look

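In 6 named genes the exon counts differed 2-fold or more between the times with randomer and 2-fold or more the other way with control oligo, and this difference between the pairs was not tested. TNIP2 was at a log2 ratio of 3.13 with randomer and -1.89 with control oligo, and DDIT3 at 1.24 and -1.11. DARS was at -2.48 with randomer and 1.02 with control oligo, AVL9 at -2.50 and 1.35, C16orf80 at -1.81 and 1.03, and EXOSC4 at -1.40 and 1.32. Each side is 1 library. Of the genes measured in both pairs, 12 were higher with randomer and lower with control oligo by exons and 23 the other way.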

How the results depend on the processing

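Each group holds 1 library, so no library could be left out in turn. No paired analysis was possible because each group has 1 sample. Exon counts of genes past 2-fold (242 higher and 457 lower) were 386 and 295 with DESeq2 size factors, which turned the balance, 328 and 333 with TMM factors, and 354 and 312 without RN45S in the total. They were 787 and 1040 at a minimum mean of 20 counts, 78 and 164 at 100, 3299 and 2735 with no minimum, 56 and 101 at 3-fold, and 83 and 127 among genes with no overlapping gene. Intron counts (1455 higher and 160 lower) gave 695 and 534 when scaled by the intron total, 2476 and 479 at a minimum mean of 20, 787 and 55 at 100, 5541 and 1863 with no minimum, 510 and 32 at 3-fold, and 445 and 47 without overlaps, so more introns were higher than lower in each. The intron-to-exon ratio (990 and 101) gave 442 and 19 at a minimum of 100 in both tables, 382 and 337 when centred on its median, and 296 and 33 without overlaps. The last setting tests fewer genes, as do the higher minimums. The intron share was 61.2% at 16 h and 51.7% at 9 h without RN45S, a difference of 9.51 points. Counting introns of genes without overlaps only, but exons of all genes, gave 22.6% and 17.2%, a difference of 5.35 points. That setting takes counts away from introns alone, so its levels cannot be set beside the other shares. Introns with 0 control oligo counts were 2-fold or more higher in 26.7% to 48.9% of genes over 6 settings, of which the minimum mean of 200 counts was added after the data were seen. Requiring the whole counting interval on one side changed no count. At a mean of 50 or more counts a 2-fold ratio always meets this, so the setting could not change a call. Counting error at a mean of 50 limits single genes.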

Other observations

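SR splicing factors had a median exon log2 ratio of -0.34 over 16 measured members and hnRNP genes one of -0.31 over 19, with no member of either past 2-fold. Among the 115 measured ZNF zinc finger genes 15 were 2-fold or more higher and 12 lower, with a median of -0.08, where 4.02% and 7.58% of all genes were higher and lower.

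DDIT3, ARHGAP9 and R3HDM2, which lie near each other in RefSeq gene order (GRCh38.p14), were higher together, a set chosen after the values were seen and given with no test. DDIT3 introns had 176 counts at 16 h and 30 at 9 h with randomer, beside 1 and 9 with control oligo. ARHGAP9 introns had 171 and 19 and R3HDM2 introns 398 and 133 with randomer. MARS, which lies between DDIT3 and ARHGAP9, had 90 and 176 intron counts, and MBD6, on the other side, had 27 and 40.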
